A study of Homo sapiens with 9 samples.

Results

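Kinesins are motor proteins that use ATP to move along microtubules or to take microtubules apart. Some build and pull the spindle when a cell divides, others carry vesicles, mitochondria and RNA, above all along the axons of neurons, and others serve the cilium. The family was taken here as every symbol in the deposited table made of KIF, digits and at most 1 letter A, B or C, together with KIFC1, KIFC2 and KIFC3. This gave 42 genes of the 35762 in the table by a rule on the symbol alone. By their known roles 15 were listed as mitotic, 12 as cargo transport, 9 as ciliary and 6 as other kinesins, and the roles overlap: KIF2A, listed as mitotic, also acts in growing axons.

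The cells were TYUC-1, a cancer cell line that the labels assign to neuroendocrine carcinoma of the esophagus, grown in suspension. They were sampled after 0, 3 or 6 days of EPZ-6438, a small molecule that inhibits EZH2, the histone H3 methyltransferase of Polycomb repressive complex 2, with 3 biological replicates per day. The treatment protocol names 2 uM EPZ-6438 or DMSO, every library including those of day 0 carries EPZ-6438 as its treatment, and whether the day 0 cells were given DMSO is not stated. Vehicle-treated cells of day 3 or day 6 were not analysed here, so the inhibitor and the days in culture cannot be told apart. All replicates come from 1 cell line. Of the neuroendocrine markers, ENO2 was at 371, 435 and 477 CPM (means of days 0, 3 and 6), while CHGA, which encodes chromogranin A, had 0 counts in all 9 libraries.

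RNA was measured by poly-A sequencing, and the deposited values are estimated counts per gene, which are given below as CPM, counts scaled to a common library size with TMM factors. Libraries held 21638874 to 31235055 estimated counts, so that 3 counts, the upper limit that a count of 0 allows, stood for 0.0979 to 0.141 CPM. The kinesin genes took between 0.195% and 0.238% of the counts of a library. Libraries are named by day and replicate, as in D0_2. That library stood apart: its counts differed from those of D0_1 and D0_3 by a chi-square of 55.6 and 47.7 per gene, against 3.53 to 16.4 for the other pairs of the same day, and its summed kinesin level was the lowest of the 9 libraries (2150 CPM, against 2342 and 2428 CPM in D0_3 and D0_1). Results that rest on D0_2 are given with and without it.

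Of the 42 kinesin genes 38 were counted well enough to be tested, and KIF7, KIF2B, KIF4B and KIF25 were not. On day 3 against day 0, 9 members were higher and 4 lower (edgeR's quasi-likelihood test, adjusted p under 0.05). Of the 15345 genes tested in all, 22.5% were called higher and 18.1% lower, 40.6% together, so the family's 13 of 38 did not stand above the background. On day 6 against day 0, 13 members were higher and 5 lower, beside 28.9% and 25.7% of all genes, 54.6% together. On day 6 against day 3, 6 were higher and 1 lower, beside 11.5% and 4.76% of all genes, 16.3% together. The 2 comparisons with day 0 share the day 0 libraries, and 20 members were called in none of the 3. Where 3 log2 fold changes stand in a row, they are those of day 3 over day 0, of day 6 over day 0 and of day 6 over day 3.

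Members that changed at least 2-fold were all higher. At least 2-fold higher were 7 members on day 3 against day 0 (9.18% of all genes were), 8 on day 6 against day 0 (14.9%) and 5 on day 6 against day 3 (6.32%), and no member was called at least 2-fold lower in any of the 3. Falls of that size were rare among all genes too, at 0.384%, 0.769% and 0.45% of those tested in the 3 comparisons. The 8 were the cargo kinesin genes KIF1A, KIF5A, KIF5C, KIF13A, KIF3C and KIF21B, the ciliary KIF17, and KIF12. For KIF1A, KIF5A, KIF5C and KIF12 every day 0 library held fewer than 10 counts, the minimum count of the filter. These genes entered the test through the later days, so the filter largely set their direction against day 0. The median log2 fold change of the tested members was small, at 0.048, 0.12 and 0.045 in the 3 comparisons, beside 0.015, 0.013 and -0.0013 for all genes. The libraries of the days compared did not overlap for 14 members above and 8 below on day 3 against day 0 (beside 53.8% of all genes tested), 14 above and 5 below on day 6 against day 0 (58.7%), and 11 above and 5 below on day 6 against day 3 (43.5%). Those counts run over the 38 tested members.

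**Figure D1:**
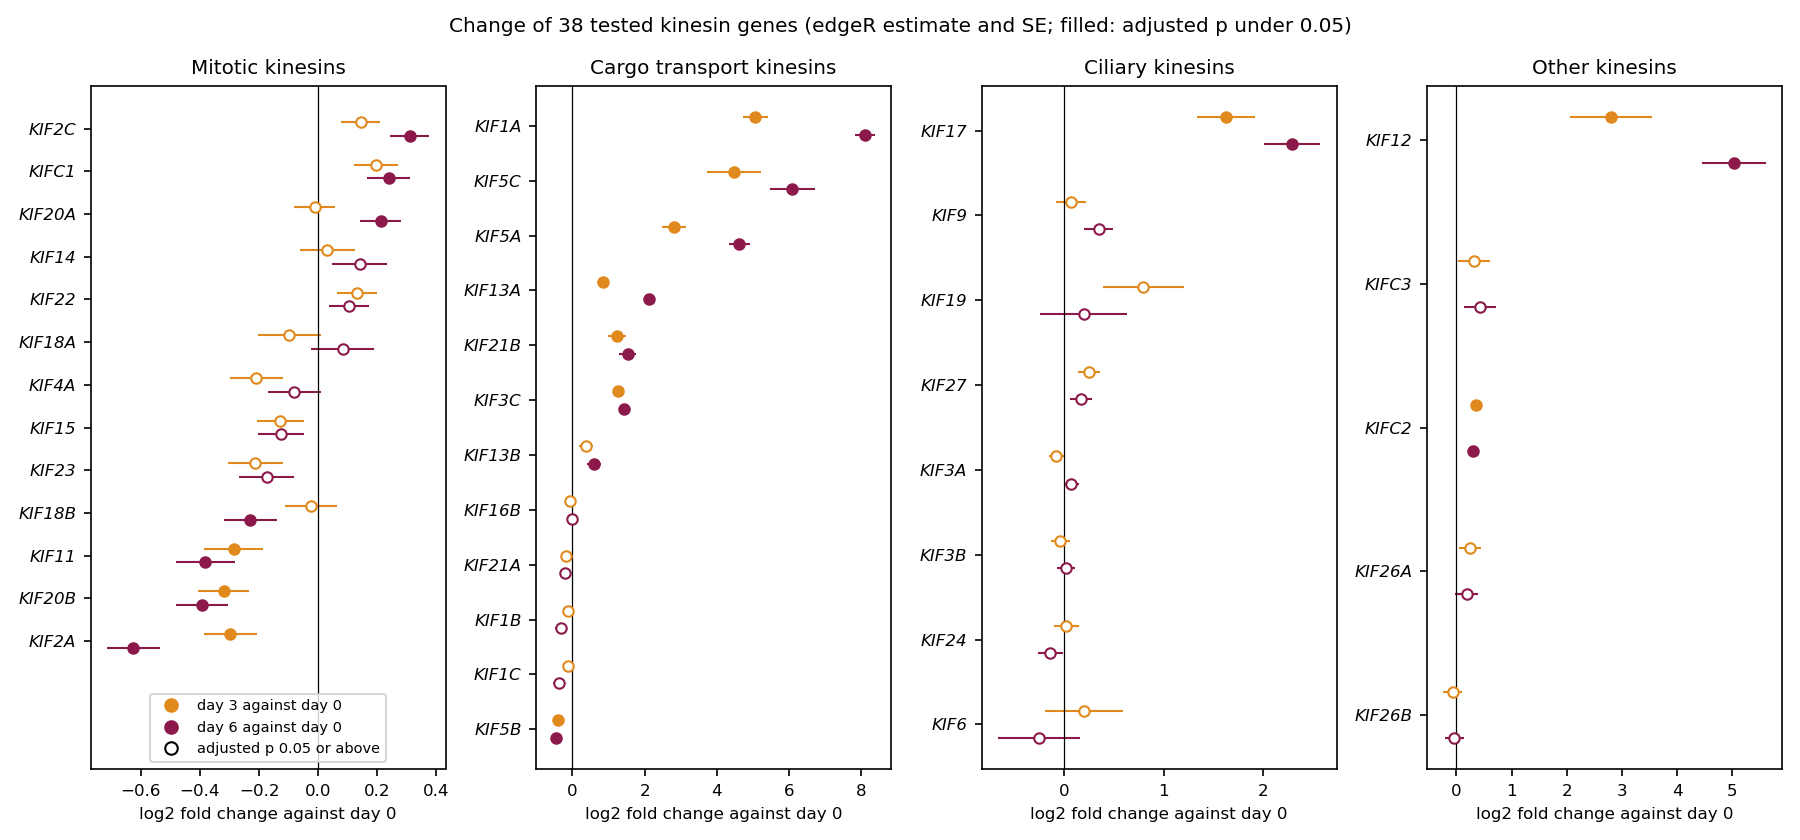
Log2 fold change of the 38 tested kinesin genes on day 3 and on day 6 against day 0, by role. Points are edgeR estimates, bars are standard errors derived from the F statistic, and filled points have an adjusted p under 0.05. The horizontal scale differs between panels: the mitotic genes lie between -0.63 and 0.31, while the cargo genes reach 8.10.

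Cargo transport kinesins held the largest rises of the family. Of 12 tested, 6 were higher and 1 lower on day 3 against day 0, 7 higher and 1 lower on day 6 against day 0, and 4 higher and 0 lower on day 6 against day 3. Beside these counts, 22.5%, 28.9% and 11.5% of all genes were higher and 18.1%, 25.7% and 4.76% lower. The median log2 fold changes of the cargo genes were 0.60, 1.01 and 0.19. Their summed level did not rise with them, being 896, 697 and 859 CPM on day 0, 749.7, 741 and 725 CPM on day 3 and 739, 734 and 701 CPM on day 6. D0_2 was low, and KIF5B, KIF1B and KIF1C had lower means on both later days than on day 0.

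KIF1A, KIF5B and KIF5C show both ends of that range, and their promoters are printed here for comparison. Each is the 300 bases from 250 before to 50 after a RefSeq transcription start (build GRCh38.p14), read 5′ to 3′ on the gene's strand, with capitals marking matches to CCAAT or to TTTGAA or TTCGAA on either strand. KIF1A has 3 starts and KIF5C has 2 in that table, and the window with the most CpG is shown.
KIF1A, chr2:240820170-240820469 (minus strand): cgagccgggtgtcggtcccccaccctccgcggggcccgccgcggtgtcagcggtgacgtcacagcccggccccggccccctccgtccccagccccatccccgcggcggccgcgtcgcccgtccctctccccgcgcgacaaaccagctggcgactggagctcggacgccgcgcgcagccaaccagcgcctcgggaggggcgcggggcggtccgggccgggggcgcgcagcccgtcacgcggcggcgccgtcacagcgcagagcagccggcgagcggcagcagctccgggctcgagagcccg
KIF5B, chr10:32056376-32056675 (minus strand): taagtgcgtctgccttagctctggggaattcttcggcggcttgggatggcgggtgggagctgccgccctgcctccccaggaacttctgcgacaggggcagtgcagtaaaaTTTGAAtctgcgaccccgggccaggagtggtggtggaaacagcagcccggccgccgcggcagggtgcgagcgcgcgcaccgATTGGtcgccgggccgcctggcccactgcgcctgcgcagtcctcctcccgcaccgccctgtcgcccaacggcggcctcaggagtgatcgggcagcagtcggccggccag
KIF5C, chr2:148874977-148875276 (plus strand): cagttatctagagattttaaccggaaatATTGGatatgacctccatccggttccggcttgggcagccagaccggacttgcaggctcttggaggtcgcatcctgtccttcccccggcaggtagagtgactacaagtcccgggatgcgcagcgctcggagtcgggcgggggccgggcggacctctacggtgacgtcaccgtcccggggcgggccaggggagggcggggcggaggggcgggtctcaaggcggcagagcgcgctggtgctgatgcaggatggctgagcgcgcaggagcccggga
The KIF1A window held 51 CpG and no match to either motif, and that of KIF5C 28 CpG and 1 CCAAT. The KIF5B window held 30 CpG and 1 match to each motif. Over the 34 members with a promoter in the table the median was 29.5 CpG, against 16 over all 27305 genes, taking the window with the most CpG for each gene.

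KIF1A (chromosome 2, 240713761 to 240821036, minus strand, in GENCODE 29 on GRCh38) encodes the neuronal motor that carries synaptic vesicle precursors and dense-core vesicles down the axon. It had 3, 4 and 0 counts in the day 0 libraries, 95, 93 and 71 on day 3 and 726, 585 and 712 on day 6, or 0.0979, 0.17 and 0 CPM, 3.54, 3.11 and 3.09 CPM and 24.4, 25.2 and 30.6 CPM. The 3 days did not overlap, and the day 0 level lay near the limit of detection. From pooled counts the day 3 level was 35 (95% interval 16.7 to 87.9) times that of day 0, the day 6 level 286 (95% interval 139 to 713) times that of day 0, and the day 6 level 8.17 (95% interval 7.18 to 9.34) times that of day 3. The fitted log2 fold changes were 5.06 (SE 0.35, adjusted p = 1.3e-06), 8.10 (SE 0.27, adjusted p = 1.53e-09) and 3.04 (SE 0.16, adjusted p = 3.48e-07). In bulk RNA a larger share of cells with the transcript and more of it per cell cannot be told apart.

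KIF1A nevertheless stayed the lowest of its subfamily per kilobase of transcript. KIF1B, a mitochondrial and vesicle motor, and KIF1C, a motor found in most tissues, were at 188 ± 47.7, 173 ± 6.96 and 149.9 ± 2.57 CPM and 174 ± 44.9, 161 ± 2.67 and 134 ± 14.4 CPM on days 0, 3 and 6. KIF1A made up 0.030%, 0.95% and 8.55% of the summed CPM per kilobase of the 3 genes on days 0, 3 and 6. Neither KIF1B nor KIF1C passed the test over all 9 libraries (adjusted p = 0.0821 and 0.0615 on day 6 against day 0). D0_2 lay apart for both: it held 133 CPM of KIF1B and 122 CPM of KIF1C, where D0_1 and D0_3 held 211 and 219 CPM of KIF1B and 194 and 205 CPM of KIF1C. Without D0_2 both were lower, KIF1B by a log2 fold change of -0.32 (adjusted p = 0.000369) on day 3 and -0.53 (adjusted p = 1.83e-06) on day 6 against day 0, and KIF1C by -0.31 (adjusted p = 0.0043) and -0.58 (adjusted p = 1.79e-05). With D0_2 kept and a trend of counts over GC and length removed, a setting chosen after the data were seen, both were also lower on day 6 against day 0 (KIF1B -0.27, adjusted p = 0.0157; KIF1C -0.49, adjusted p = 0.000947), and KIF1C was lower on day 3 (-0.26, adjusted p = 0.042).

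KIF5A, KIF5B and KIF5C encode the heavy chains of conventional kinesin, of which KIF5B is made in most tissues while KIF5A and KIF5C are typical of neurons. KIF5B fell, being at 321, 309 and 274 CPM on day 0, 231, 229 and 223 CPM on day 3 and 227, 237 and 192 CPM on day 6. Its log2 fold changes were -0.41 (SE 0.092, adjusted p = 0.0045), -0.46 (SE 0.092, adjusted p = 0.00111) and -0.058 (SE 0.092, adjusted p = 0.741). All libraries of days 3 and 6 lay below those of day 0, and days 3 and 6 overlapped.

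The neuronal heavy chains went the other way. KIF5A was at 0.196, 0.255 and 0.094 CPM on day 0, 1.68, 1.24 and 1.04 CPM on day 3 and 4.74, 4.74 and 4.56 CPM on day 6, with log2 fold changes of 2.81 (SE 0.33, adjusted p = 6.13e-05), 4.62 (SE 0.30, adjusted p = 1.54e-07) and 1.82 (SE 0.22, adjusted p = 0.000137). The days did not overlap, and the 3 libraries of day 6 were close to each other. KIF5C had 0, 0 and 1 counts on day 0, 14, 10 and 8 on day 3 and 32, 36 and 25 on day 6. From pooled counts its day 3 level was 30.3 (95% interval 5.06 to 1233) times that of day 0 and its day 6 level 3.04 (95% interval 2.02 to 4.7) times that of day 3, and the first ratio rests on a single day 0 count. The fitted log2 fold changes were 4.48 (SE 0.75, adjusted p = 0.000716), 6.09 (SE 0.63, adjusted p = 8.27e-06) and 1.60 (SE 0.36, adjusted p = 0.00854). The call of KIF5C on day 6 against day 3 was lost without D3_2 (adjusted p = 0.0543) and without D6_2 (adjusted p = 0.0509). Despite these rises KIF5B still made up 99.9%, 99.3% and 97.4% of the KIF5 level per kilobase on days 0, 3 and 6.

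**Figure D2:**
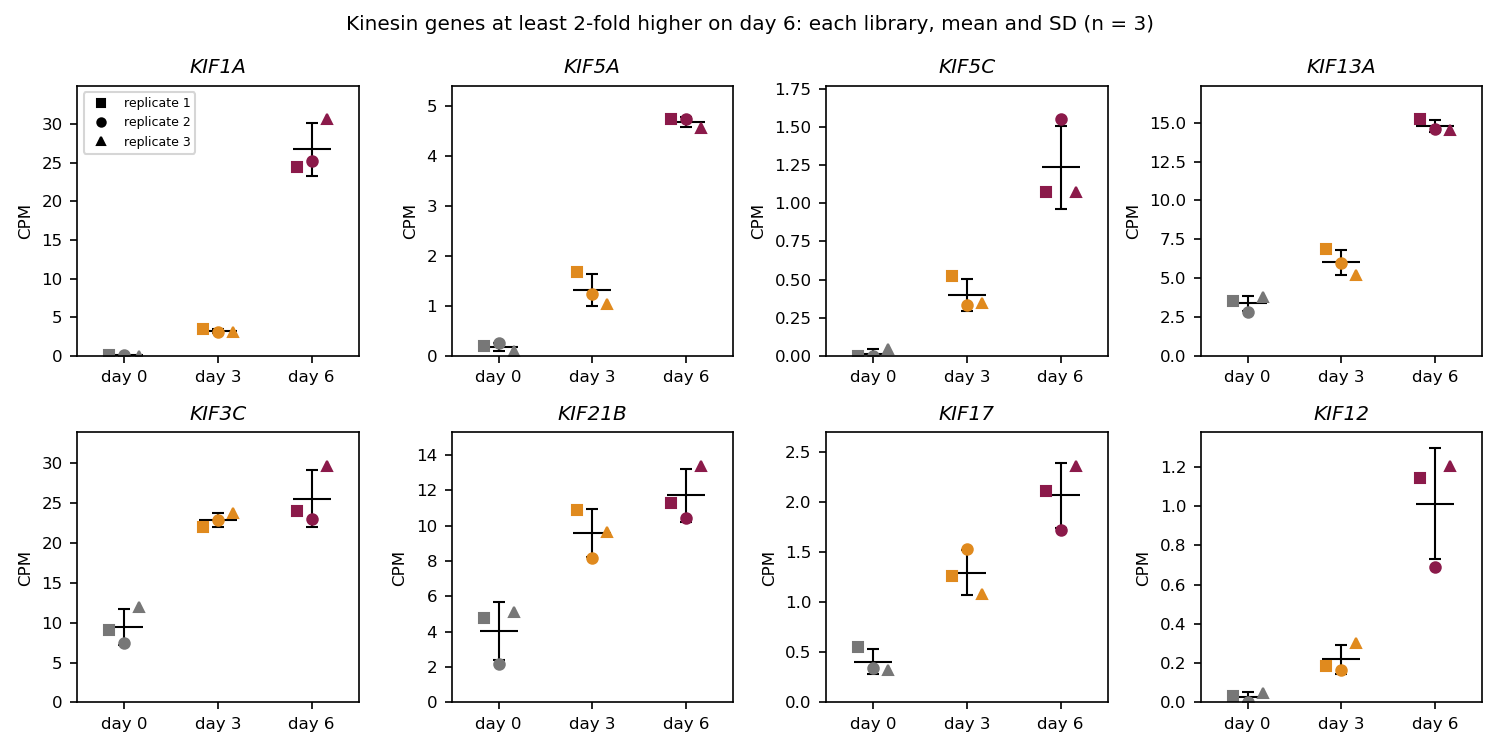
CPM of the 8 kinesin genes at least 2-fold higher on day 6 than on day 0, in each library (markers by replicate), with the mean (bar) and SD over n = 3 libraries of each day. KIF1A, KIF5A, KIF5C, KIF13A and KIF12 are also higher on day 6 than on day 3, while KIF3C, KIF21B and KIF17 pass the test against day 0 only.

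KIF13A, which moves endosomes and recycling vesicles, was at 3.56, 2.81 and 3.76 CPM on day 0, 6.86, 5.95 and 5.22 CPM on day 3 and 15.2, 14.6 and 14.5 CPM on day 6. The days did not overlap, and the larger step came after day 3, with log2 fold changes of 0.83 (SE 0.14, adjusted p = 0.000761), 2.13 (SE 0.14, adjusted p = 1.49e-07) and 1.30 (SE 0.13, adjusted p = 2.62e-05). Whether the steps differ was not tested. Its paralog KIF13B was at 30.1, 15.4 and 32.1 CPM on day 0, 35.1, 32.3 and 32.8 CPM on day 3 and 37.7, 39.9 and 39.9 CPM on day 6. KIF13B was higher on day 6 against day 0 (a log2 fold change of 0.60, SE 0.20, adjusted p = 0.0227), and D0_2 lay far below its replicates. Without D0_2 that log2 fold change was 0.32 (adjusted p = 0.000873), and the call was lost without D6_2 (adjusted p = 0.0651) and without D6_3 (adjusted p = 0.0712). KIF13A made up 14.8%, 18.5% and 32.3% of the KIF13 level per kilobase on days 0, 3 and 6.

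KIF3C, a partner of KIF3A in a heterodimeric motor of neurons, rose by day 3 and was not called after it. It was at 9.04, 7.48 and 11.9 CPM on day 0, 22.1, 22.9 and 23.7 CPM on day 3 and 24, 23 and 29.7 CPM on day 6, with log2 fold changes of 1.28 (SE 0.15, adjusted p = 6.73e-05), 1.43 (SE 0.15, adjusted p = 9.58e-06) and 0.16 (SE 0.14, adjusted p = 0.519). Days 3 and 6 both lay above day 0 and overlapped each other. KIF3A and KIF3B, the usual heterodimer, did not pass in any comparison, and the share of KIF3C in the 3 genes per kilobase was 12.1%, 25.8% and 26.7% on days 0, 3 and 6.

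KIF21B, a neuronal motor that also limits microtubule growth, likewise rose by day 3. It was at 4.8, 2.17 and 5.12 CPM on day 0, 10.9, 8.16 and 9.65 CPM on day 3 and 11.3, 10.4 and 13.4 CPM on day 6, and the log2 fold changes were 1.24 (SE 0.24, adjusted p = 0.00188), 1.53 (SE 0.24, adjusted p = 0.000209) and 0.29 (SE 0.22, adjusted p = 0.438). D0_2 was again the lowest library, and without it the rises were 0.94 (adjusted p = 0.000189) on day 3 and 1.23 (adjusted p = 6.98e-06) on day 6 against day 0. KIF21A, a relative linked to eye movement disorders when mutated, was at 91.7, 81.3 and 79 CPM in the means of days 0, 3 and 6 and did not pass (adjusted p = 0.081 on day 6 against day 0). KIF21B made up 2.82%, 7.27% and 9.16% of the KIF21 level per kilobase. KIF16B, an early endosome motor, was at 19.5, 18.7 and 19.3 CPM and did not pass in any comparison.

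**Figure D3:**
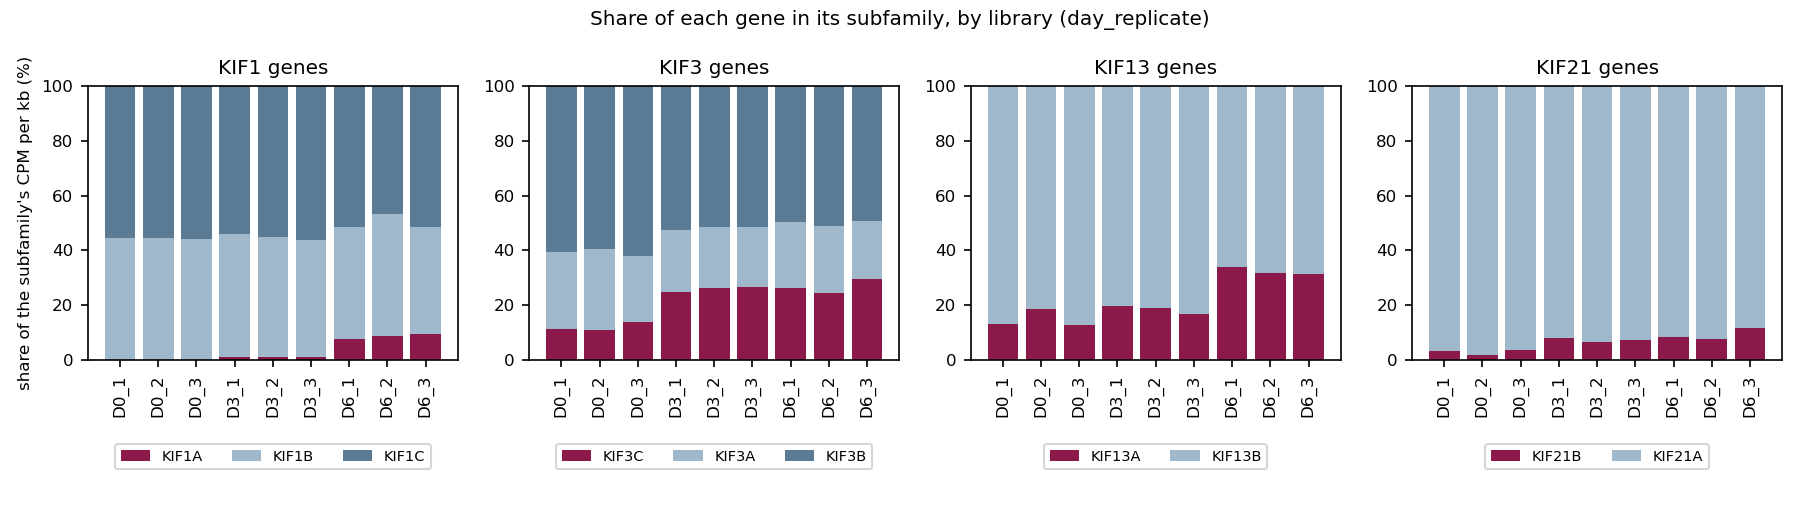
Share of each gene in the summed CPM per kilobase of its subfamily, for the KIF1, KIF3, KIF13 and KIF21 genes in each of the 9 libraries (written as day_replicate). The share of KIF1A reaches 8.55% on day 6 in the mean of 3 libraries, that of KIF3C 26.7%, that of KIF13A 32.3% and that of KIF21B 9.16%.

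Mitotic kinesins moved little, and in both directions. Of 13 tested, 0 were higher and 3 lower on day 3 against day 0, 3 higher and 4 lower on day 6 against day 0, and 1 higher and 1 lower on day 6 against day 3, with median log2 fold changes of -0.098, -0.081 and 0.038. Both directions together, the share called lay below the 40.6% of all genes on day 3 against day 0. It lay near the 54.6% on day 6 against day 0 and the 16.3% on day 6 against day 3. The summed level of the mitotic kinesins was 1280, 1265 and 1226 CPM on day 0, 1219, 1218 and 1199 CPM on day 3, and 1249, 1253 and 1198 CPM on day 6. Per kilobase the most abundant kinesin transcripts of these cells were among them, KIF22 at 66.8, 73.2 and 71.8 CPM and KIF20A at 55.8, 55.3 and 64.6 CPM per kilobase on days 0, 3 and 6, beside 51.3, 38.7 and 37.2 for KIF5B.

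Most promoters of this group share a sequence feature that the choice of members did not use. TTTGAA or TTCGAA, the core of the cell cycle genes homology region to which the DREAM and MuvB complexes bind, lay within the 300 bases in 11 of 15 mitotic kinesin genes (73.3%), in 1 of 9 cargo genes, in 1 of 7 ciliary genes and in 0 of 3 others, beside 19.5% of all 27305 genes. CCAAT, the box bound by NF-Y, lay in 11 of the 15 (73.3%, against 39.7% of all genes), and both motifs in 10 (66.7%, against 7.80%). Shown with the same conventions are KIF11 and KIF20B, which were lower on day 6 and hold both motifs, and KIF2C, which was higher and holds neither.
KIF11, chr10:92592880-92593179 (plus strand): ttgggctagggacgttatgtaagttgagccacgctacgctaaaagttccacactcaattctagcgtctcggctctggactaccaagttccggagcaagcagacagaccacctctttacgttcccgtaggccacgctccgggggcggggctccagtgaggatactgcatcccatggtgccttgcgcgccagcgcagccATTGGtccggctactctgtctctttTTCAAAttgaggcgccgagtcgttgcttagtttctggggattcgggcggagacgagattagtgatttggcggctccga
KIF20B, chr10:89701340-89701639 (plus strand): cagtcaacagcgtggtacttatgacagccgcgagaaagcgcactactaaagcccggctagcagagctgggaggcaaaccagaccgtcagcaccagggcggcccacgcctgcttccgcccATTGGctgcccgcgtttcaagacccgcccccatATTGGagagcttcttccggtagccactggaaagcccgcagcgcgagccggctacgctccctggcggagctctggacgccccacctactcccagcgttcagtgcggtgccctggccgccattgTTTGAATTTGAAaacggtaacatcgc
KIF2C, chr1:44739587-44739886 (plus strand): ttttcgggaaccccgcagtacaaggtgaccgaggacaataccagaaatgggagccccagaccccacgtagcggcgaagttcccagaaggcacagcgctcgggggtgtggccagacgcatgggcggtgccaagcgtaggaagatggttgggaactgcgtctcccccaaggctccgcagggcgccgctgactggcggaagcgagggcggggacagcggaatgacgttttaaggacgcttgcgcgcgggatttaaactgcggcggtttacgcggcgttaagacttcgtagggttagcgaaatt
Genes with both motifs were called in either direction. Among the mitotic genes called on day 6 against day 0, KIF11, KIF20B and KIF18B (lower) and KIFC1 (higher) held both, KIF20A (higher) held CCAAT alone, and KIF2A (lower) and KIF2C (higher) held neither.

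Against day 0, KIF11, KIF20B and KIF2A were lower on both later days. KIF11 (chromosome 10, 92593286 to 92655395, plus strand), the Eg5 motor that pushes the spindle poles apart, was at 118, 129 and 104 CPM on day 0, 96.2, 94.7 and 96.8 CPM on day 3 and 90.8, 99.9 and 78.5 CPM on day 6. Its log2 fold changes were -0.29 (SE 0.10, adjusted p = 0.0391), -0.38 (SE 0.10, adjusted p = 0.00677) and -0.10 (SE 0.10, adjusted p = 0.595). KIF20B, which acts in the last step of cytokinesis, was at 74.6, 69.2 and 65.4 CPM on day 0, 57.1, 55.8 and 54.7 CPM on day 3 and 56.6, 56.2 and 46.5 CPM on day 6. The log2 fold changes of KIF20B were -0.32 (SE 0.088, adjusted p = 0.0127), -0.39 (SE 0.088, adjusted p = 0.00255) and -0.073 (SE 0.088, adjusted p = 0.652). For both genes the day 0 libraries lay above all others, and days 3 and 6 overlapped. The call of KIF11 on day 3 against day 0 was lost in 9 of 19 alternatives, among them leaving out D0_1, D0_2, D3_1, D3_2, D3_3 or D6_1 (adjusted p = 0.0507 to 0.11).

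KIF2A is a depolymerase that trims microtubule ends at spindle poles and in growing axons. It was at 82.3, 76.2 and 82.2 CPM on day 0, 63.9, 65.5 and 66.5 CPM on day 3 and 54.9, 56.4 and 44.7 CPM on day 6. The days did not overlap, and KIF2A was the 1 member lower in all 3 comparisons, with log2 fold changes of -0.30 (SE 0.089, adjusted p = 0.0194), -0.63 (SE 0.089, adjusted p = 0.000106) and -0.33 (SE 0.089, adjusted p = 0.0258). The transcripts of KIF11, KIF20B and KIF2A are poor in G and C (38.3%, 34.2% and 41.6%). After removal of the GC and length trend, the log2 fold changes of the 3 on day 3 against day 0 were -0.095, -0.15 and -0.12, and none passed (adjusted p = 0.219, 0.0538 and 0.234). The day 6 values against day 0 were -0.18, -0.24 and -0.43, smaller than without that correction, and all 3 passed (adjusted p = 0.0222, 0.00424 and 0.000472). The call of KIF2A was also lost on day 3 against day 0 without D0_3, D3_1 or D3_2 (adjusted p = 0.0503 to 0.0707) and on day 6 against day 3 without D3_1, D3_2, D3_3 or D6_3 (adjusted p = 0.0608 to 0.0887).

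The mitotic genes called higher on day 6 than on day 0 were KIF2C, KIF20A and KIFC1, with log2 fold changes of 0.31, 0.21 and 0.24. KIF2C, the MCAK depolymerase that corrects wrong chromosome attachments, was at 78.9, 76.3 and 78.8 CPM on day 0, 86.7, 84.9 and 86.9 CPM on day 3 and 91.6, 98.2 and 100.5 CPM on day 6. Its log2 fold changes were 0.14 (SE 0.066, adjusted p = 0.104), 0.31 (SE 0.066, adjusted p = 0.00184) and 0.17 (SE 0.066, adjusted p = 0.116). KIF20A, which brings the chromosomal passenger complex to the midzone, was at 172, 187 and 177 CPM on day 0, 171, 181 and 179.6 CPM on day 3 and 214, 199 and 207 CPM on day 6, and rose after day 3. Its log2 fold changes were -0.011 (SE 0.069, adjusted p = 0.912), 0.21 (SE 0.069, adjusted p = 0.0216) and 0.22 (SE 0.069, adjusted p = 0.0473). Days 0 and 3 of KIF20A overlapped and day 6 lay above both. Its call against day 0 was lost without D0_1, D0_3, D3_3, D6_1 or D6_3 (adjusted p = 0.0535 to 0.105), and that against day 3 without any 1 library other than D0_2 (adjusted p = 0.0588 to 0.191).

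KIFC1, a minus-end motor that clusters spindle poles, was at 108, 98.4 and 104 CPM on day 0, 118, 125 and 114 CPM on day 3 and 126, 115 and 126 CPM on day 6. It passed on day 6 against day 0 (a log2 fold change of 0.24, SE 0.074, adjusted p = 0.0164) but not on day 3 against day 0 (a log2 fold change of 0.20, SE 0.074, adjusted p = 0.0514) or day 6 against day 3 (a log2 fold change of 0.042, SE 0.073, adjusted p = 0.771). Its transcript is rich in G and C (57.9%), and the day 6 call was lost with the GC and length trend removed (adjusted p = 0.123), without D6_1 (adjusted p = 0.0761) and without D6_3 (adjusted p = 0.0614). KIF18B, which controls astral microtubules, was at 127, 101 and 116 CPM on day 0, 117, 115 and 107 CPM on day 3 and 99.3, 92.4 and 101 CPM on day 6. KIF18B was called lower on day 6 against day 0 (a log2 fold change of -0.23, SE 0.089, adjusted p = 0.0463) with overlapping libraries. Of the day 0 libraries only D0_2 reached into the day 6 range. The call was lost in 12 of 19 alternatives, among them leaving out any 1 library other than D0_2 (adjusted p = 0.0515 to 0.181). Without D0_2 the log2 fold change was -0.32 (adjusted p = 0.000787). With D0_2 kept and the GC and length trend removed it was -0.41 (adjusted p = 6.42e-05).

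**Figure D4:**
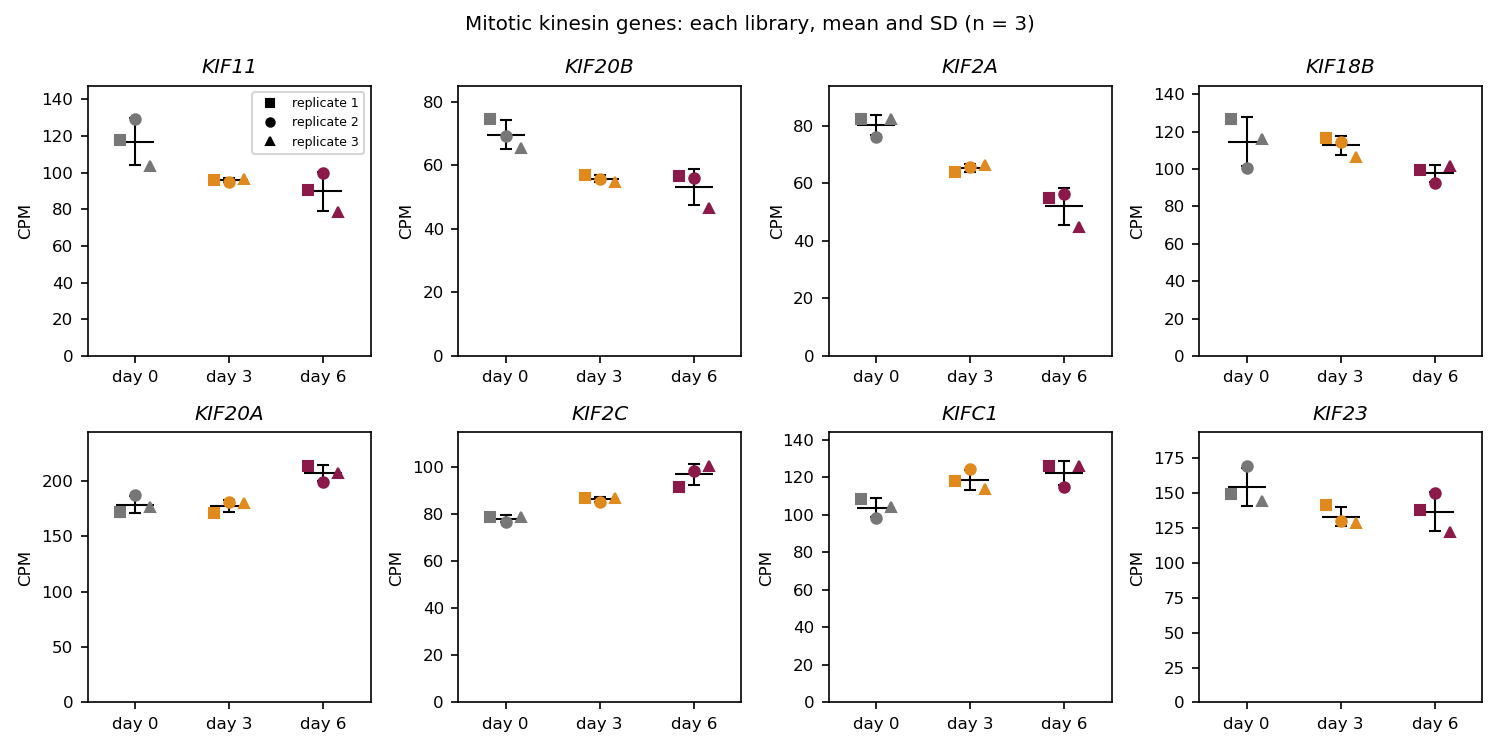
CPM of 8 mitotic kinesin genes in each library (markers by replicate), with the mean (bar) and SD over n = 3 libraries of each day; each axis starts at 0. KIF11, KIF20B and KIF2A lie lower on days 3 and 6, KIF20A, KIF2C and KIFC1 lie higher on day 6 than on day 0, the KIF18B libraries of day 6 and day 0 overlap, and KIF23 did not pass the test.

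KIF23, the motor of the centralspindlin complex that sets up cytokinesis, was at 149, 169.8 and 144 CPM on day 0, 141, 129.9 and 128 CPM on day 3 and 138, 150.3 and 122 CPM on day 6. It did not pass in any comparison, with log2 fold changes of -0.21 (SE 0.094, adjusted p = 0.0889), -0.17 (SE 0.094, adjusted p = 0.135) and 0.038 (SE 0.094, adjusted p = 0.838). The other mitotic members also did not pass, except under some alternatives. KIF4A was lower on day 3 against day 0 without D0_2 (log2 fold change -0.28, adjusted p = 0.00658). With the GC and length trend removed, KIF14 was higher against day 0 on day 3 (0.17, adjusted p = 0.026) and day 6 (0.31, adjusted p = 0.000563), while KIF18A was higher on day 6 (0.29, adjusted p = 0.000872). In the means of days 0, 3 and 6 the cytokinesis motor KIF14 was at 77.2, 78.9 and 85.2 CPM, the spindle motor KIF15 at 36, 32.9 and 33 CPM, and the chromosome-aligning KIF18A at 33.6, 31.4 and 35.6 CPM. The chromokinesins KIF22 and KIF4A were at 167, 183 and 179.9 CPM and 47, 40.6 and 44.4 CPM. KIF4B, an intronless copy of KIF4A, had 2 counts in all, in a day 3 library, and reads cannot be split with certainty between such copies. KIF2B, a testis-rich depolymerase, had 2 counts in all, in a day 6 library.

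Among the ciliary kinesins KIF17 passed the test. Of 8 tested, 1 was higher and 0 lower on day 3 and on day 6 against day 0, and none was called on day 6 against day 3. These shares lay below those of all genes, 40.6%, 54.6% and 16.3% in both directions together. KIF17, the homodimeric motor of cilia that in mice also carries receptors in dendrites, was at 0.555, 0.34 and 0.329 CPM on day 0, 1.27, 1.54 and 1.09 CPM on day 3 and 2.12, 1.72 and 2.37 CPM on day 6. Its log2 fold changes were 1.63 (SE 0.29, adjusted p = 0.00118), 2.29 (SE 0.28, adjusted p = 3.56e-05) and 0.66 (SE 0.24, adjusted p = 0.0909), and the 3 days did not overlap. In pooled counts that is 158 on day 6 and 105 on day 3, against 32 on day 0.

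KIF3A and KIF3B, which drive intraflagellar transport, were at 24.9 ± 1.36, 23.5 ± 0.419 and 26.2 ± 1.22 CPM and 54 ± 7.32, 52.5 ± 0.841 and 54.6 ± 2.2 CPM on days 0, 3 and 6. KIF24, a centriolar depolymerase that holds back ciliogenesis, was at 44, 44.6 and 39.9 CPM, and KIF27, a relative of KIF7, at 7.08, 8.4 and 7.96 CPM. KIF9, known in mice from sperm flagella and motile cilia, was at 2.89, 3.02 and 3.68 CPM. KIF19, which in mice trims motile cilia, had 20, 37 and 23 pooled counts and KIF6 52, 63 and 45 on the 3 days. KIF7, the ciliary tip kinesin of Hedgehog signalling, had 0, 1 and 1 counts in the day 0 libraries, 0, 1 and 1 on day 3 and 3, 2 and 3 on day 6, too few for a test, and its day 6 level in pooled counts was 3.96 (95% interval 0.79 to 38.3) times that of day 0. Without D0_2 KIF24 was lower on day 6 against day 0 (log2 fold change -0.31, adjusted p = 0.000622). With the GC and length trend removed, KIF27 was higher against day 0 on day 3 (0.43, adjusted p = 0.00985) and day 6 (0.37, adjusted p = 0.0135), and KIF3A was higher on day 6 (0.25, adjusted p = 0.00222).

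Of the 5 other kinesin genes tested, 2 were higher and 0 lower on day 3 and on day 6 against day 0, and 1 was higher on day 6 against day 3. Beside these counts, 22.5%, 28.9% and 11.5% of all genes were higher and 18.1%, 25.7% and 4.76% lower. KIF12, known from liver and kidney epithelium, had 1, 0 and 1 counts on day 0, 5, 5 and 7 on day 3 and 34, 16 and 28 on day 6. Its day 3 level was 8.04 (95% interval 1.91 to 71.8) times, and its day 6 level 38.6 (95% interval 10.3 to 324) times, that of day 0 in pooled counts, with fitted log2 fold changes of 2.81 (SE 0.74, adjusted p = 0.0107) and 5.03 (SE 0.58, adjusted p = 2.1e-05). On day 6 against day 3 the change was 2.22 (SE 0.40, adjusted p = 0.00235). Even on day 6 KIF12 stayed near 1.01 CPM.

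KIFC2, a minus-end motor of neurons, was at 30.1, 30.4 and 29.7 CPM on day 0, 40.9, 37.4 and 37.6 CPM on day 3 and 37.1, 35.2 and 39.1 CPM on day 6. The libraries of days 3 and 6 lay above those of day 0, with log2 fold changes of 0.36 (SE 0.073, adjusted p = 0.00239), 0.30 (SE 0.073, adjusted p = 0.004) and -0.057 (SE 0.072, adjusted p = 0.671). Its transcript has 67.8% G and C. With the GC and length trend removed the sign turned (-0.017 and -0.071 against day 0, adjusted p = 0.87 and 0.404). The direction of KIFC2 therefore depends on that correction.

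KIF26A and KIF26B, atypical kinesins known in mice from the development of the gut nervous system and the kidney, did not pass over all 9 libraries. KIF26A was at 54.5, 26.7 and 51.8 CPM on day 0, 52.9, 55.7 and 49.3 CPM on day 3 and 52, 44.2 and 55.2 CPM on day 6, with log2 fold changes of 0.25 (SE 0.20, adjusted p = 0.357), 0.19 (SE 0.20, adjusted p = 0.468) and -0.061 (SE 0.20, adjusted p = 0.883). KIF26B was at 25.6, 15.1 and 27.4 CPM on day 0, 22.5, 23 and 19.6 CPM on day 3 and 22.2, 21.5 and 22.9 CPM on day 6, with log2 fold changes of -0.064 (SE 0.17, adjusted p = 0.796), -0.034 (SE 0.17, adjusted p = 0.882) and 0.031 (SE 0.17, adjusted p = 0.934). In both genes D0_2 lay far below its replicates. Without it KIF26B was lower on day 3 (-0.29, adjusted p = 0.0113) and on day 6 (-0.26, adjusted p = 0.0138) against day 0, while KIF26A was at -0.019 and -0.084 and did not pass. KIFC3, a minus-end motor of epithelial junctions, had 45, 59 and 61 pooled counts on days 0, 3 and 6 and KIF25 4, 6 and 9.

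Leaving out D0_2 added lower members, and also calls among all genes. Without it 9 members were higher and 7 lower on day 3 against day 0, beside 25.1% and 21.6% of all genes tested. For day 6 against day 0 the counts were 13 higher and 10 lower, beside 31.7% and 29.1%. For day 6 against day 3 they were 8 higher and 5 lower, beside 16.6% and 13.4%, so the lower count there lay near the background. The additional lower members on day 6 against day 0 were KIF1B, KIF1C, KIF21A, KIF24 and KIF26B. Lower in addition on day 6 against day 3 were KIF1B, KIF1C, KIF24 and KIF18B, and higher were KIF13B and KIF2C. The 8 members at least 2-fold higher on day 6 kept their calls against day 0 without that library.

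Motor proteins that carry other symbols gave 1 rise. STARD9, a kinesin of the centrosome, was at 15.9, 6.42 and 16.2 CPM on day 0, 25.3, 25.1 and 21.7 CPM on day 3 and 23, 23.5 and 22.6 CPM on day 6, and rose against day 0, by 0.90 (SE 0.24, adjusted p = 0.0114) on day 3 and 0.84 (SE 0.24, adjusted p = 0.0116) on day 6 on the log2 scale. D0_2 was its lowest library, and without it the log2 fold changes were 0.58 (adjusted p = 8.78e-05) and 0.51 (adjusted p = 0.000115). CENPE, the kinetochore motor, was at 125 ± 10.4, 108 ± 1.42 and 117 ± 15.2 CPM and did not pass, but was lower on day 3 against day 0 without D0_2 (-0.27, adjusted p = 0.0193).

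Among 22 tested partners of kinesins, 7 were higher and 1 lower on day 3 against day 0, 7 higher and 3 lower on day 6 against day 0, and 3 higher and 4 lower on day 6 against day 3. Both directions together, these shares are below those of all genes against day 0 (40.6% and 54.6%) and above the 16.3% on day 6 against day 3. The higher partners alone lay above the 22.5% of all genes on day 3 against day 0. They lay near the 28.9% on day 6 against day 0 and the 11.5% on day 6 against day 3. The lower ones lay below the 18.1% and 25.7% against day 0 and above the 4.76% on day 6 against day 3. Without D0_2 the partners gave 7 higher and 3 lower, 6 and 7, and 4 and 7 in the 3 comparisons. All genes then gave 25.1% higher and 21.6% lower, 31.7% and 29.1%, and 16.6% and 13.4%. On day 6 against day 0 the share of higher partners then lay below that of all genes, and that of lower partners slightly above. The summed level of the 22 partners fell, from 1697 to 1835 CPM on day 0 to 1479 to 1570 CPM on day 3 and 1371 to 1439 CPM on day 6. KTN1 alone was at 869, 579 and 517 CPM in the means of the 3 days. Without D0_2 its log2 fold change against day 0 was -0.55 (adjusted p = 0.000267) on day 3 and -0.72 (adjusted p = 1.18e-05) on day 6. KLC3, a light chain that links conventional kinesin to cargo, was at 1.64 ± 0.445, 5.26 ± 0.582 and 9.98 ± 1.69 CPM on days 0, 3 and 6. The JIP scaffolds MAPK8IP1 and MAPK8IP2, cargo adaptors known from neurons, were at 1.39, 3.6 and 6.39 CPM and 2.67, 5.62 and 10.1 CPM, and all 3 genes were higher in each comparison (lowest adjusted p 5.87e-07, for KLC3 on day 6 against day 0). The light chain gene KLC4 had log2 fold changes of 0.69 (SE 0.11, adjusted p = 0.000689), 0.95 (SE 0.11, adjusted p = 2.74e-05) and 0.26 (SE 0.11, adjusted p = 0.144). APBA1, which in mice couples KIF17 to its cargo, was higher against day 0 on both later days and lower on day 6 against day 3, with log2 fold changes of 0.78 (SE 0.10, adjusted p = 0.000161), 0.35 (SE 0.11, adjusted p = 0.0149) and -0.43 (SE 0.10, adjusted p = 0.012). The mitochondrial adaptor TRAK2 was lower on day 6 against day 3 (a log2 fold change of -0.53, SE 0.12, adjusted p = 0.00997).

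Most genes listed as tubulins and microtubule proteins of neurons were higher on the later days. Of 15 tested, 14 were higher and 0 lower on day 3 against day 0, 12 higher and 1 lower on day 6 against day 0, and 9 higher and 2 lower on day 6 against day 3, with medians of 0.67, 1.71 and 0.51. Of all genes tested, 22.5%, 28.9% and 11.5% were higher and 18.1%, 25.7% and 4.76% lower in the 3 comparisons. Without D0_2, 16 were tested, and 14 were higher and 0 lower, 12 and 1, and 11 and 2. All genes then gave 25.1% higher and 21.6% lower, 31.7% and 29.1%, and 16.6% and 13.4%. DPYSL3, a collapsin response mediator, was at 0.0971 ± 0.0393, 2.04 ± 0.115 and 13.4 ± 1.02 CPM on days 0, 3 and 6. The tubulin genes TUBB3, TUBB4A and TUBA1A were at 2.21, 8.45 and 12.1 CPM, 3.01, 14.9 and 19.2 CPM and 15.8, 38.7 and 73.7 CPM, and MAP1B was at 0.0658, 0.283 and 1.4 CPM. The neurofilament gene NEFM was lower on day 6 than on day 3 (a log2 fold change of -0.92, SE 0.10, adjusted p = 4.13e-05). Of 6 neuron markers 2 were tested and neither was called, and the summed level of all 6 was 11.8 to 16.2 CPM on day 0, 11.4 to 11.6 CPM on day 3 and 11.5 to 13.2 CPM on day 6. Leukocyte, fibroblast, endothelial and squamous markers summed to 489 to 644, 55.3 to 60.1, 2.49 to 3.4 and 11.7 to 12.5 CPM on day 0. On day 3 they summed to 347 to 363, 78.0 to 83.7, 5.09 to 5.85 and 22.4 to 24.6 CPM. On day 6 they summed to 328 to 331, 73.7 to 80.7, 9.14 to 12.6 and 33.2 to 36.9 CPM, with PTPRC, which defines leukocytes, at 0.515, 0.377 and 0.444 CPM on days 0, 3 and 6. Without D0_2 the lower leukocyte marker on day 6 against day 0 was LYZ (log2 fold change -0.63, adjusted p = 2.29e-07). Over all 9 libraries, 1 leukocyte marker of 5 tested was higher and 1 lower on day 6 against day 0. Of the other markers, 3 of 4 fibroblast, 2 of 3 endothelial and 5 of 5 squamous markers were higher. None of the leukocyte, fibroblast, endothelial and squamous markers had 0 counts in all 9 libraries. Their part in the changes of the kinesin genes was not tested.

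Dynein and dynactin, the machinery that runs against most kinesins, held 2 higher and 7 lower of 27 tested on day 3 against day 0, 4 higher and 11 lower on day 6 against day 0, and 1 higher and 0 lower on day 6 against day 3. Both directions together, these shares against day 0 are near or below those of all genes (40.6% and 54.6%). The lower genes alone lay above the 18.1% and 25.7% of all genes, and the higher ones below the 22.5% and 28.9%. On day 6 against day 3 the share lay below the 16.3% of all genes. Without D0_2 the counts were 5 higher and 10 lower, 5 and 10, and 3 and 4. The adaptor gene HOOK2 was higher in all 3 (41.6, 59.7 and 71.9 CPM on days 0, 3 and 6), while the dynein regulators PAFAH1B1 (206, 164 and 154 CPM) and NDEL1 (41.3, 35.7 and 30.5 CPM) and the dynactin subunits DCTN5 (104, 80.1 and 80.1 CPM) and ACTR10 (51, 39.6 and 42.5 CPM) were lower in both comparisons with day 0. Without D0_2 ACTR10 did not pass on day 6 against day 0 (adjusted p = 0.0571). DYNC1H1, the dynein heavy chain gene, was at 856, 403 and 901 CPM on day 0, with D0_2 far below its replicates. It was at 621, 639 and 598 CPM on day 3 and 515, 499 and 526 CPM on day 6. Without D0_2 its log2 fold change against day 0 was -0.51 (adjusted p = 1.06e-05) on day 3 and -0.78 (adjusted p = 5.1e-08) on day 6. Intraflagellar transport genes held 1 higher and 3 lower of 24 on day 3 against day 0, 14 higher and 0 lower on day 6 against day 0, and 7 higher and 0 lower on day 6 against day 3. Of all genes tested, 22.5%, 28.9% and 11.5% were higher and 18.1%, 25.7% and 4.76% lower in the 3 comparisons. Without D0_2 the counts were 5 higher and 4 lower, 15 and 1, and 17 and 0. All genes then gave 25.1% higher and 21.6% lower, 31.7% and 29.1%, and 16.6% and 13.4%. IFT27, IFT46, TTC30A and DYNC2H1 were at 9.35, 12.9 and 19.2, 16.2, 18.2 and 23.6, 7.57, 8.81 and 12.6 and 1.48, 2.31 and 8.16 CPM on days 0, 3 and 6, and IFT88 at 10.5, 9.32 and 13.1 CPM. IFT52 (19.4, 13.8 and 17.9 CPM), CLUAP1 (26.4, 20.9 and 23.7 CPM) and TTC26 (15.6, 13 and 15.4 CPM) were the 3 lower on day 3 against day 0, and IFT57 had 0 counts in every library.

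Few spindle genes that work with the mitotic kinesins passed the test. Of 25 tested, 0 were higher and 3 lower on day 3 against day 0, 1 higher and 4 lower on day 6 against day 0, and none was called on day 6 against day 3. These shares lay below those of all genes, of which 22.5%, 28.9% and 11.5% were higher and 18.1%, 25.7% and 4.76% lower. Without D0_2 the counts were 2 higher and 4 lower, 6 and 7, and 1 and 3. All genes then gave 25.1% higher and 21.6% lower, 31.7% and 29.1%, and 16.6% and 13.4%. The lower genes included the kinase gene AURKA (107 ± 12.7, 88.9 ± 0.0711 and 79.9 ± 2.46 CPM on days 0, 3 and 6), ANLN (197 ± 15, 162 ± 6.63 and 155 ± 13 CPM), BUB1B (169 ± 2.26, 140.3 ± 5.14 and 129 ± 10.6 CPM), and on day 6 CDK1 (174 ± 29, 141 ± 8.21 and 137 ± 17 CPM). Without D0_2 the log2 fold change of CDK1 on day 6 against day 0 was -0.21 (adjusted p = 0.0419) and that of AURKA on day 3 against day 0 was -0.17 (adjusted p = 0.0196). TPX2 and PRC1, the list's highest by mean CPM over all days, were at 392, 382 and 384 CPM and 352, 342 and 327 CPM and were not called on day 6 against day 3. Of 12 proliferation genes 0 were higher in any comparison over all 9 libraries, and 3 were lower on day 3 against day 0, 6 on day 6 against day 0 and 5 on day 6 against day 3. Without D0_2 these counts of lower genes were 4, 8 and 8, and 1 was higher on day 6 against day 3. With and without D0_2 the share of lower proliferation genes lay above that of all genes in each comparison. RRM2, a subunit of ribonucleotide reductase, was at 352 ± 25.9, 237 ± 10.4 and 189 ± 5.65 CPM, CDC6 at 131, 89.7 and 72.8 CPM, E2F1 at 84.3, 87.7 and 56.9 CPM, PCNA at 379.7, 292 and 244 CPM and MCM3 at 283, 274 and 224 CPM on days 0, 3 and 6. PCNA, at -0.38 (adjusted p = 0.0294) on day 3 against day 0 on the log2 scale, was at -0.20 (adjusted p = 0.0232) without D0_2. How far this bears on the mitotic kinesins was not tested.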

How the data were processed

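RNA of TYUC-1 cells was sequenced in 9 libraries, 3 for each of days 0, 3 and 6 of EPZ-6438. The authors deposited estimated counts per gene symbol, whole numbers with no scaling to a common total. Tools named in the submitters' processing notes are bcl2fastq 2.19, kallisto 0.44.0 and DESeq2, and builds are GRCh38, GRCm38 and hg38; what each served for and the use of strand are not given in the sources used here, so overlapping and antisense genes cannot be told apart. Kallisto estimates the origin of reads that fit several transcripts, which leaves near-identical copies uncertain.

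From the deposited estimated counts, edgeR 4.0.16 (R 4.3.3) gave TMM factors and quasi-likelihood F-tests. The filter was filterByExpr with a minimum count of 10. The 9 libraries were fitted together, with a mean for each day and 6 residual degrees of freedom, and Benjamini-Hochberg adjustment ran over the 15345 genes tested. The script was tested on simulated data. CPM per kilobase divides CPM by the longest coding transcript of GENCODE 29 (GRCh38), which also gave coordinates and GC. Ratios of pooled counts have exact 95% intervals, which with the floor of 3 counts cover counting error only. Promoters came from RefSeq and matched 34 of 42 members by symbol.

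The members, lists and naming rule were chosen with earlier results of these data known. By that rule every member is named, with full statistics for 15 set members and for up to 4 members of each role with the lowest p in each comparison; of each other list up to 4 members with the lowest p are named. Alternatives were median-ratio factors, library size only, no filter, genes averaging 5 CPM or more, tests by DESeq2 1.42.0 and by limma-voom (limma 3.58.1), a fit to only the libraries compared, a replicate block, an adjusted p under 0.01, scaling without mitochondrial and the 20 most abundant genes, each library left out, and, chosen after seeing the data, removal of the GC and length trend.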

Additional observations from a re-analysis of the deposited data

How the results depend on the processing

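Of the 38 called changes of single kinesin genes 26 kept their call and direction in all 19 alternatives at 0.05, and of 76 not called 30 were called in at least 1. The counts of higher members against day 0 stayed within 1.5 times the values given under every alternative run, and the others moved as follows. Lower on day 3 against day 0 (4) was 1 by library size only, 1 at an adjusted p under 0.01, and 2 to 7 with a library left out, the 2 without D3_1 or D3_2 and the 7 without D0_2. Lower on day 6 against day 0 (5) was 4 to 10 with a library left out, the 10 without D0_2. Higher on day 6 against day 3 (6) was 3 among genes of at least 5 CPM and 10 once the GC and length trend was removed. Lower on day 6 against day 3 (1) was 0 by library size only, among genes of at least 5 CPM and under 0.01, 4 in the fit of 2 days, 2 with the GC and length trend removed, and 0 to 5 with a library left out, the 0 without D3_1, D3_2, D3_3 or D6_3 and the 5 without D0_2. Of all genes on day 3 against day 0, 6226 were called and 3860 under 0.01. On day 6 against day 3, 2497 were called, and 1248 of at least 5 CPM, 4331 in the fit of 2 days, 1444 under 0.01, 3915 with the GC and length trend removed, and 1606 (without D3_2) to 4681 (without D0_2) with a library left out. The causes were not tested beyond the smaller number of genes or the stricter threshold in those settings.

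Signs turned for uncalled changes and for KIFC2. With the GC and length trend removed the log2 fold changes against day 0 were -0.16 (day 3) and -0.20 (day 6) for KIF26A, -0.017 and -0.071 for KIFC2, and 0.019 (day 6) for KIF23. KIF26B was at 0.0053 (day 3) and 0.070 (day 6) by library size only, 0.050 (day 6) among genes of at least 5 CPM and 0.011 (day 6) by limma-voom. With a library left out KIF26A ranged over -0.019 to 0.43 (day 3), -0.084 to 0.36 (day 6) and -0.13 to 0.024 (day 6 against day 3), and KIF26B over -0.29 to 0.083, -0.26 to 0.11 and -0.040 to 0.073. On day 6 against day 3, KIF20B ranged over -0.13 to 0.0079, KIF23 over -0.035 to 0.11 and KIF5B over -0.12 to 0.022. Library size only shifted the median of all genes by 0.080, 0.11 and 0.035 and the share of calls that were higher to 69.2%, 66.5% and 78.1%, against 55.3%, 53.0% and 70.7%.

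Same-numbered replicates deviated together by correlations of -0.15 to 0.21. Differently numbered libraries were not compared in this way, so these values cannot decide whether the numbers pair the libraries. With the number as a replicate block, 9, 13 and 5 members were higher and 4, 6 and 1 lower in the 3 comparisons. KIF1C was then lower on day 6 against day 0 (adjusted p = 0.0389), and KIF20A lost its call on day 6 against day 3 (0.0744). Depth limits KIF7, KIF2B, KIF4B and KIF25, which had at most 9 pooled counts on any day. Replicates share 1 cell line, and p-values measure the spread between these libraries.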
